A study of Jaltomata procumbens and Jaltomata herrerae with 23 samples.

Results

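Nuclear genes for photosynthesis were followed through the life of the floral nectary, and in leaf, in 2 species of the nightshade genus Jaltomata. The genes were taken from a list of 54 Arabidopsis loci: light-harvesting antenna proteins, subunits of both photosystems, electron carriers, ATP synthase subunits, Rubisco small subunits with Rubisco activase, and Calvin cycle enzymes. The deposited table had a row for 48 of them among its 13170 loci. The 6 without a row were LHCB4.1, PSAD1, PSAE1, PSAH1, PSBQ1 and PETE2. All 48 rows passed the filter on low values (at least 1 TPM in at least 2 libraries). TPM (a kallisto estimate scaled to a fixed total) is a level per transcript length, so levels of different genes can be set side by side. The table gives loci without names, and the symbols used are the Arabidopsis ones.

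Chloroplast antenna proteins bind chlorophyll and pass light energy to photosystem II and photosystem I, which move electrons from water to ferredoxin. The resulting ATP and NADPH drive the Calvin cycle, in which Rubisco fixes carbon dioxide. Most of these proteins are encoded in the nucleus, and their transcripts are usually far more abundant in green leaf than in other organs. A floral nectary is a small gland that secretes sugar. In many plants it is green for part of its life and also draws sugar from the phloem.

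The groups were nectaries of Jaltomata herrerae and Jaltomata procumbens taken 24 to 48 h ahead of flower opening (pre-secretory), from open flowers 3 to 6 h after dawn (secretory) and once petals had dropped (post-secretory), with fully expanded leaves of each species. No treatment separated the groups, and no genetic change separated those of the same species. A time of day was given for the secretory stage only. After leaving out 3 libraries (described next), J. herrerae had 3 pre-secretory, 3 secretory, 3 post-secretory and 2 leaf libraries, and J. procumbens had 3, 2, 2 and 2. The labels do not tie replicates to separate plants, so p-values measure the spread between these samples, which may be technical. In hand-dissected tissue, fewer green cells and less RNA per cell cannot be told apart.

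A set of 3 J. procumbens libraries stood against their labels in these genes and was left out of the main results. In pre-secretory A the 48 genes held 32.4% of the listed TPM, whereas B, C and D of that stage had 0.15% to 0.185%. They held 0.199% in post-secretory A against 1.94% and 2.93% in post-secretory B and C, and 1.01% in leaf A against 26.6% and 21.7% in leaf B and C. Over all loci, pre-secretory A correlated with its own group at 0.463 and with J. herrerae leaf at 0.886. Post-secretory A stood at 0.823 against 0.976 with secretory nectary, and leaf A at 0.711 against 0.924 with post-secretory nectary. Pre-secretory B, C and D, whose own group here includes A, were also nearer secretory nectary (0.877, 0.955 and 0.818 against 0.794, 0.787 and 0.774). Counts with all 23 libraries are given beside each comparison. Sums of the nectary markers CRC, a transcription factor of nectary development, and SWEET9, a sucrose exporter, were highest in secretory nectary among the libraries kept. They lay at 19883 to 21873 in J. herrerae and 25003 to 31534 in J. procumbens secretory nectary, at 5089 to 8933 and 2420 to 21072 before secretion, at 518 to 1042 and 598 to 2486 after it, and at 352 to 764 and 18.2 to 33.2 in leaf. Post-secretory nectary and leaf of J. herrerae thus overlapped in these markers. These sums, and all levels below unless said otherwise, are rescaled TPM: TPM divided by a library factor from the median ratio over 9613 loci.

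The 48 genes made up a large part of the listed TPM in leaf and little of it in any nectary before or during secretion. They held 32.3% and 36.6% of the listed TPM in the J. herrerae leaf libraries. In J. herrerae nectary they held 0.539%, 0.242% and 1.79% before secretion (libraries A, B and C), 0.094%, 0.171% and 0.197% during it, and 3.35%, 5.97% and 3.78% after it. In J. procumbens nectary the secretory libraries stood at 0.207% and 0.27%. Among the libraries kept, those taken after secretion lay above the earlier nectary libraries and below the leaf libraries of their species. The 3 libraries left out stood against their labels in these same genes, so leaving them out in part fixes that order. Post-secretory A of J. procumbens (0.199%) lay below both secretory libraries.

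**Figure D1:**
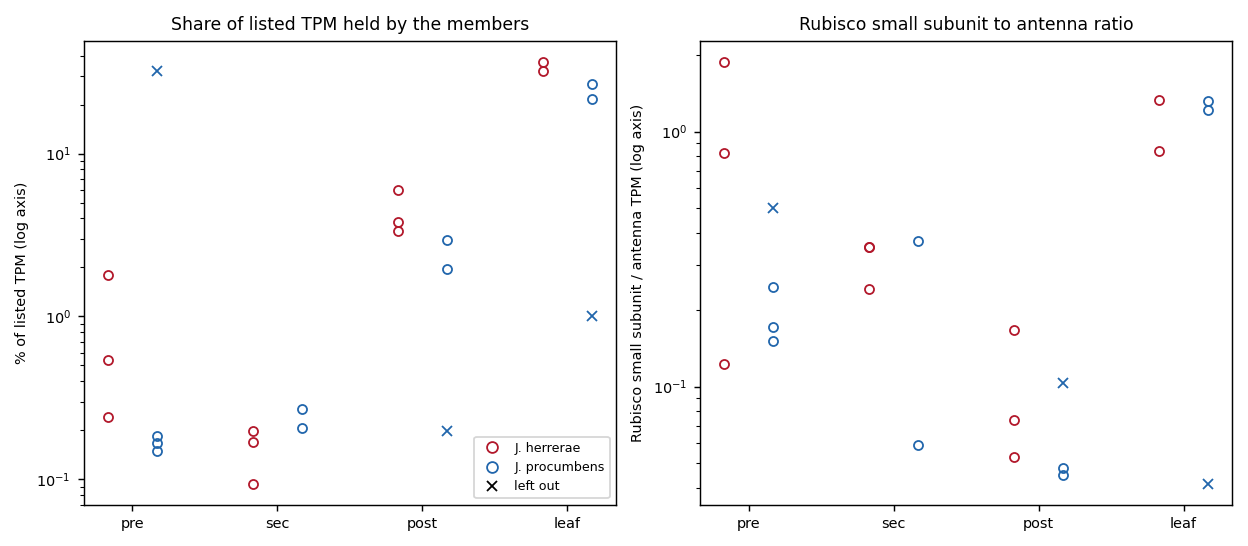
Left, share of the listed TPM (%, log axis) held by the 48 genes in each library, by stage (pre-secretory, secretory and post-secretory nectary, leaf) and species; crosses are the 3 J. procumbens libraries left out. Right, summed Rubisco small subunit TPM over summed antenna TPM (log axis): post-secretory libraries that were kept sit between 0.045 and 0.166, and leaf libraries that were kept between 0.842 and 1.33.

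Levels of single genes moved together over the 20 libraries. The correlation of each gene's log2 level with the mean of the other 47 genes had a median of 0.98, and 41 of 48 genes exceeded 0.9. This is a description over libraries that share the same steep leaf to nectary contrast. The lowest values belonged to PETE1 (0.22), LHCB2.3 (0.35), PSBO2 (0.35) and PSAG (0.47), whose rows were at 0 in many libraries. Outside the list, the 2 loci of 12975 that followed the mean most closely were AT3G21055 (r = 0.99) and AT1G55480 (r = 0.99). AT3G21055 stood at 34.8, 8.4 and 193 before, during and after secretion and 1480 in leaf of J. herrerae (group means), with 9.33, 11.4, 98.2 and 1063 in J. procumbens.

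**Figure D2:**
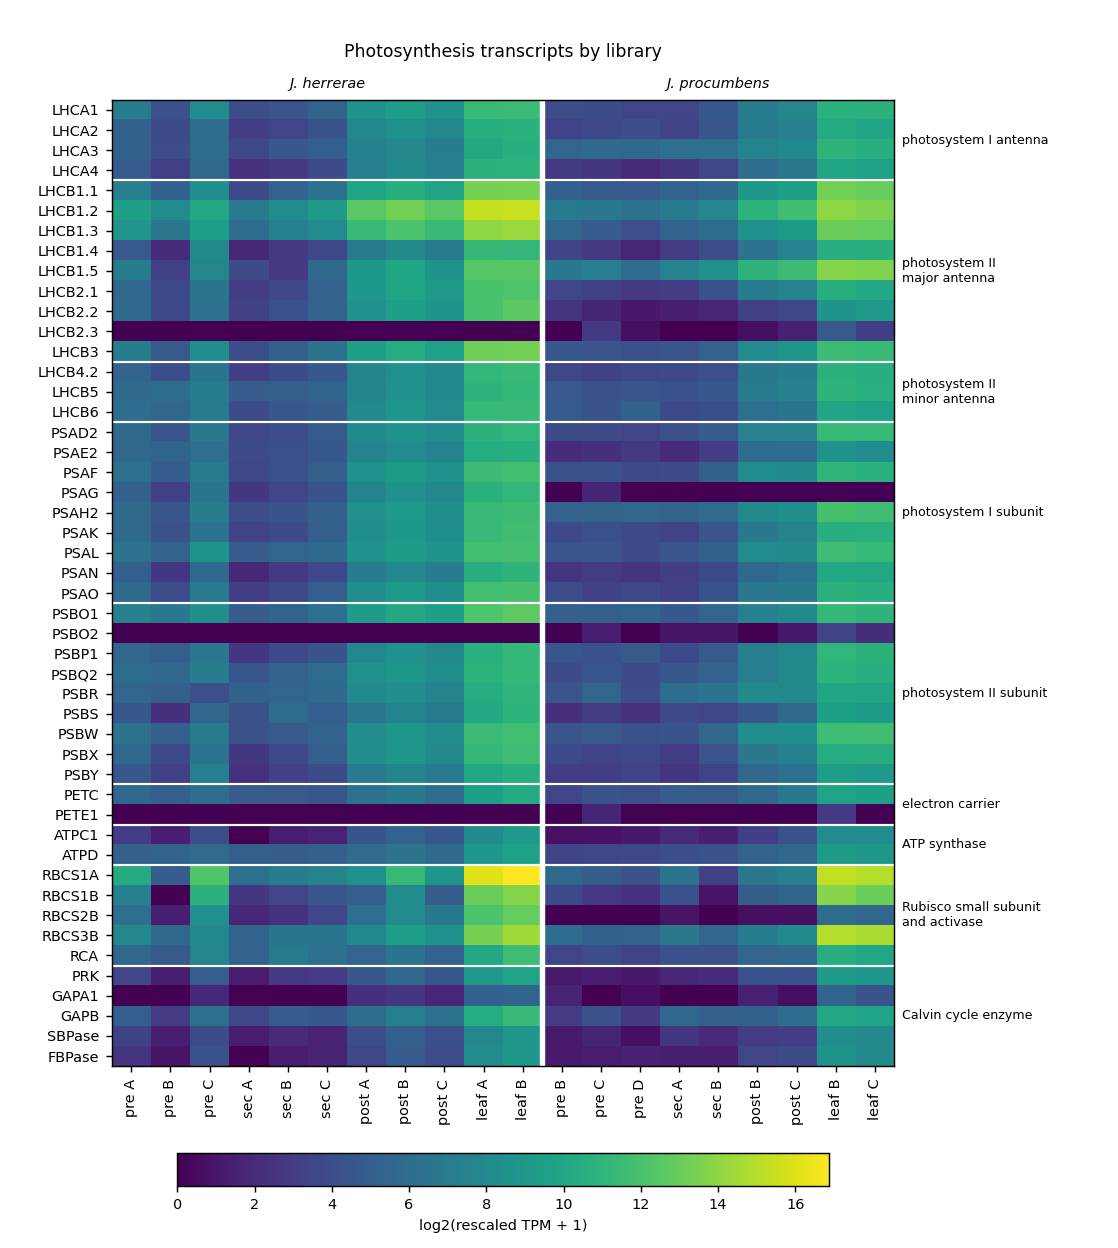
Level of each of the 48 genes (rows, grouped by role) in each of the 20 libraries kept (columns), as log2(rescaled TPM + 1). Leaf columns are brightest and post-secretory columns come next. Dark rows at or near 0 include PSAG in J. procumbens, PETE1 in both species, and LHCB2.3 and PSBO2 in J. herrerae and in J. procumbens nectary. RBCS2B in J. procumbens nectary and GAPA1 in nectary of both species are also dark.

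At the start of secretion, many of the antenna and photosystem transcripts were lower in J. herrerae, and none was called lower in J. procumbens. In J. herrerae 20 of the 48 genes fell and 0 rose (limma, adjusted p below 0.05 over 13075 loci), where 18.1% of all loci were called lower and 15.4% higher. The median change of the 48 was -1.41 on the log2 scale against -0.04 for all loci. Of the genes called, 18 were among the 34 antenna and photosystem rows, and none were among the 5 Rubisco and activase or the 5 Calvin cycle rows.

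PSBO1 (AT5G66570), which shields the water-splitting manganese cluster of photosystem II, stood at 163, 106 and 339 before secretion and 28.7, 42.3 and 71.6 during it in J. herrerae. The groups did not overlap, and PSBO1 fell by 2.00 (SE 0.39, limma adjusted p = 0.00133). PSBP1 (AT1G06680), another extrinsic protein of the same complex, had the largest called change (-2.15, SE 0.41, limma adjusted p = 0.00118). PETC (AT4G03280), the Rieske iron-sulfur protein of the cytochrome b6f complex, had the smallest (-0.87, SE 0.31, limma adjusted p = 0.0414), called in 11 of the 20 fits that left out 1 library. PETC stood at 49.8, 31.9 and 64 before and 27.3, 25.7 and 22.4 during secretion.

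The main antenna genes differed among themselves in whether they were called. LHCB1.2 (AT1G29910), the most abundant antenna row, which encodes a major light-harvesting protein of photosystem II, stood at 779, 276 and 1118 before and 126, 284 and 523 during secretion. The groups overlapped, and the change of -1.22 (SE 0.52) did not pass (limma adjusted p = 0.0849). LHCB5 (AT4G10340), a minor antenna protein, stood at 56.6, 66.2 and 133 before and 27.3, 33.2 and 42.5 during secretion, and fell by 1.21 (SE 0.30, limma adjusted p = 0.006). LHCA1 (AT3G54890), a photosystem I antenna protein, stood at 137, 18 and 295 before and 15.8, 21.2 and 42.5 during secretion. Its call (-1.86, SE 0.69, limma adjusted p = 0.048) was lost when any of 18 of the 20 libraries was left out.

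Rubisco transcripts differed most between the pre-secretory libraries themselves. RBCS1A (AT1G67090), the most abundant small subunit row, stood at 1354, 29.4 and 4961 before secretion in J. herrerae and 71.7, 136 and 188 during it. Pre-secretory B thus lay below every secretory library while A and C lay far above, and the change (-2.25, SE 1.35) did not pass (limma adjusted p = 0.219). PSBR (0.61), PSBS (0.86) and RCA (0.15) had positive estimates against the majority, and none passed. PSBR is a small photosystem II protein, PSBS senses low lumen pH in photoprotection, and RCA is Rubisco activase.

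The J. herrerae result at the start of secretion rested on single libraries. Pre-secretory C was the highest of its group in 44 of the 45 genes above 0 there. The count of genes called lower was 6 without pre-secretory C, 7 without pre-secretory A, 39 without pre-secretory B, 6 without secretory A and 9 without secretory B. With all 23 libraries in the fit 0 of the 48 were called, with 0 at an unadjusted p below 0.05, and with only the compared groups 2. The 3 libraries added there are all J. procumbens, and the median change in J. herrerae stayed at -1.41. The 6 genes called in all 20 fits that left out 1 library were PSBP1, PSBO1, PSAF, LHCB6, PSAE2 and LHCB5. Without the library factors, where the median of all loci shifted to -0.39, 37 of the 48 genes were called lower.

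In J. procumbens, 2 of the 48 genes rose at the start of secretion and 0 fell, where 17.3% of all loci were called higher and 18.3% lower. The median change of the 48 was 0.45. PSBR (AT1G79040) stood at 21.2, 45 and 15 in pre-secretory B, C and D and at 66.2 and 89.5 in secretory A and B, a rise of 1.62 (SE 0.41, limma adjusted p = 0.00787). GAPB (AT1G42970), a subunit of chloroplast glyceraldehyde-3-phosphate dehydrogenase, stood at 6.84, 16.8 and 6.25 before and 48.2 and 33.3 during secretion, a rise of 2.03 (SE 0.72, limma adjusted p = 0.0397). Neither pair of groups overlapped. The PSBR call was lost without secretory B (limma adjusted p = 0.0761), and that of GAPB without pre-secretory B or D or either secretory library (limma adjusted p = 0.0986 to 0.2). With all 23 libraries neither was called, and the PSBR estimate was then -0.17.

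The difference between species in this change was itself called for 8 of the 48 genes, all more negative in J. herrerae, where 6.75% of all loci were called in that direction. They were SBPase (-2.37), PSAD2 (-2.28), PSAF (-2.14), PSBP1 (-1.95), PSBQ2 (-1.89), PSBO1 (-1.86), PETC (-1.72) and PSAE2 (-1.66), with limma adjusted p from 0.0199 to 0.0492. The median over the 48 was -1.72. None of the 8 was called in every fit that left out 1 library, and the count fell to 0 without J. herrerae pre-secretory C, J. procumbens pre-secretory B or J. procumbens secretory B. It was 32 without J. herrerae pre-secretory B and 0 with all 23 libraries. Leaving out 1 of 12 other libraries gave 2 to 5.

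**Figure D3:**
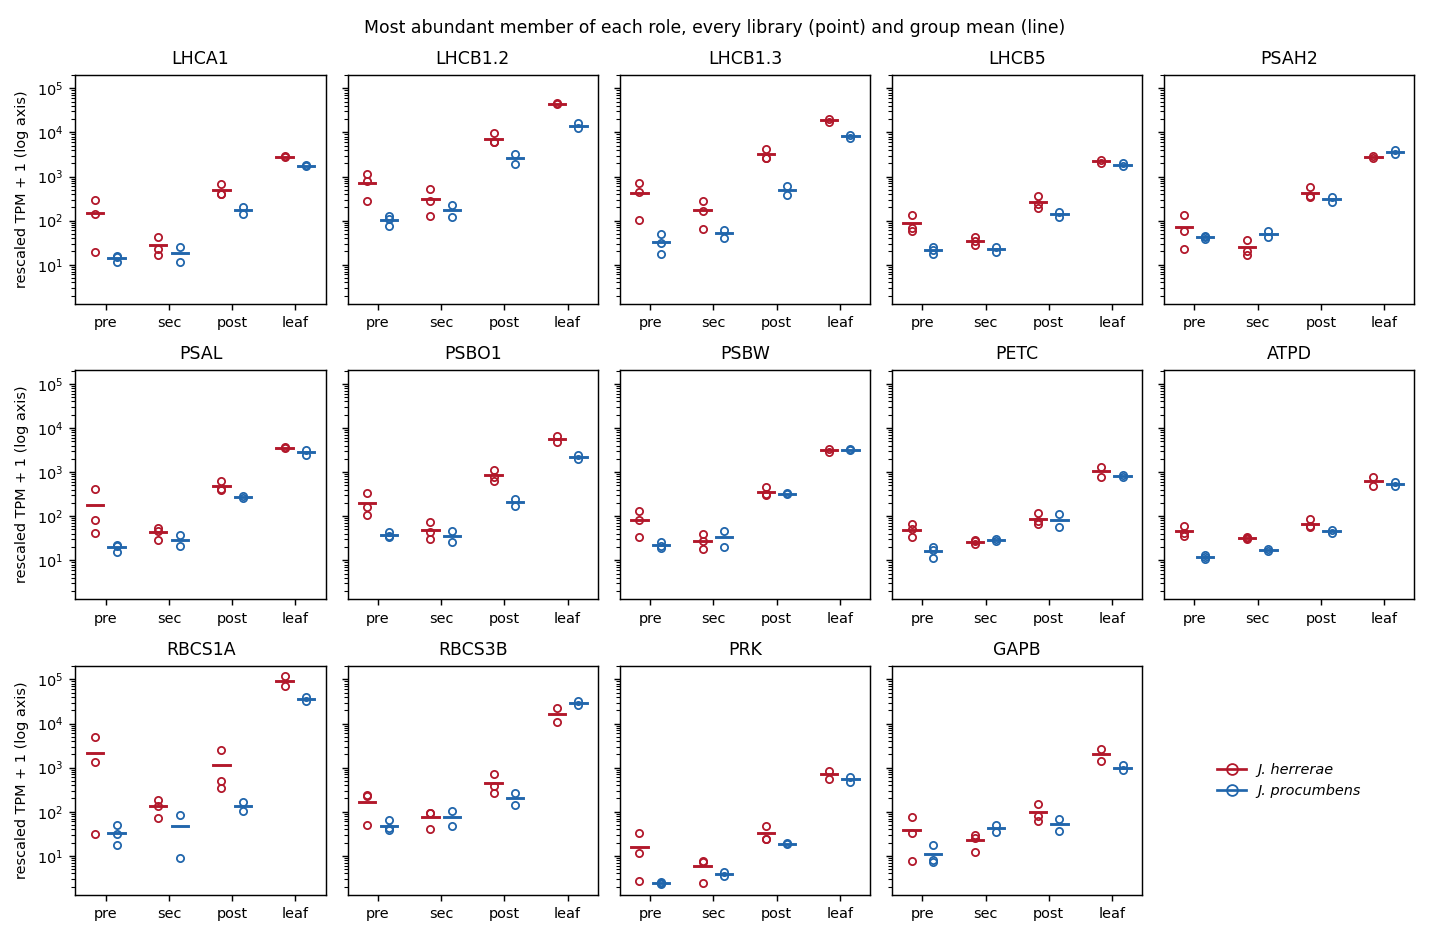
Rescaled TPM + 1 (log axis) of the most abundant genes of each role in every library kept (points) with group means (lines), by stage and species. Leaf is highest and post-secretory nectary next in every panel except RBCS1A, where the J. herrerae pre-secretory mean exceeds the post-secretory one; LHCB1.2 lies at 5928 to 9826 after secretion in J. herrerae.

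After secretion nearly every gene of the light reactions rose in both species. In J. herrerae 42 of the 48 genes rose and 0 fell, where 32.9% of all loci were called higher and 25.5% lower. In J. procumbens 35 rose and 0 fell, where 21.4% were called higher and 16.9% lower. All 35 of these were also among the 42 (35 of 35 and 35 of 42). Median changes of the 48 were 3.93 and 2.62, against 0.13 and 0.06 for all loci.

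The major antenna genes of photosystem II had the highest median rise of any role (4.74 in J. herrerae and 3.57 in J. procumbens). LHCB1.2 went from 126, 284 and 523 during secretion to 5928, 9826 and 6112 after it in J. herrerae (4.73, SE 0.52, limma adjusted p = 3.56e-06). In J. procumbens LHCB1.2 went from 121 and 226 in secretory A and B to 1881 and 3297 in post-secretory B and C, the largest called change there (3.90, SE 0.64, limma adjusted p = 0.000332). No post-secretory library overlapped a secretory one in either species.

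LHCB2.1 (AT2G05100), a second type of major antenna protein that is phosphorylated during state transitions, had the largest called change in J. herrerae (5.32, SE 0.60, limma adjusted p = 4.25e-06). LHCB2.1 stood at 7.17, 12.1 and 38 during and 510, 952 and 548 after secretion. LHCA1 rose from 15.8, 21.2 and 42.5 to 399, 670 and 405 in J. herrerae and from 10.6 and 24.4 to 137 and 201 in J. procumbens, where the call was lost without secretory A (limma adjusted p = 0.0728). LHCB1.3 (AT1G29930) rose by 4.41 and 3.22, and LHCB5 by 2.87 and 2.67, in J. herrerae and J. procumbens. Of the 16 antenna rows, the 15 above 0 in J. herrerae all rose there, and in J. procumbens all but LHCB2.3 were called.

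Photosystem I subunits had median rises of 4.43 and 3.12, beside 4.32 and 3.23 for the photosystem I antenna and 3.86 and 2.67 for the minor antenna of photosystem II. PSAL (AT4G12800), a photosystem I subunit near the docking site of the mobile antenna, went from 27.3, 45.3 and 53.7 to 382, 635 and 414 in J. herrerae and from 20.4 and 35.8 to 285 and 253 in J. procumbens. PSAH2 (AT1G52230), a docking subunit for the mobile antenna, went from 15.8, 19.6 and 35.8 to 353, 568 and 336 in J. herrerae. In J. procumbens PSAH2 went from 40.9 and 57.7 to 268 and 345. PSBO1 rose by 4.18 (SE 0.39) and 2.61 (SE 0.48), and PSBW (AT2G30570), a small photosystem II subunit, by 3.73 (SE 0.42) and 3.42 (SE 0.51), with limma adjusted p from 9.44e-07 to 0.000711.

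Among the electron carrier and ATP synthase rows the rises were uneven. ATPC1 (AT4G04640), the gamma subunit of the chloroplast ATP synthase, went from 0, 1.51 and 2.24 to 19.5, 40.5 and 22.6 in J. herrerae (3.76, SE 0.56, limma adjusted p = 4.6e-05) and rose by 1.91 in J. procumbens (SE 0.69, limma adjusted p = 0.0384), a call lost without either secretory library or post-secretory C (limma adjusted p = 0.0708 to 0.236). PETC went from 27.3, 25.7 and 22.4 to 77, 114 and 64.4 in J. herrerae and from 28.6 and 26 to 54.9 and 111 in J. procumbens, where the call was lost without post-secretory C (limma adjusted p = 0.104). ATPD (AT4G09650), the delta subunit of the chloroplast ATP synthase, had the smallest called change in both species: 1.03 (SE 0.22, limma adjusted p = 0.000907) in J. herrerae and 1.397 (SE 0.27, limma adjusted p = 0.00101) in J. procumbens. ATPD went from 31.6, 28.7 and 33.5 to 59.4, 84.7 and 54.4 in J. herrerae.

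Fewer of the Rubisco rows were called. Of the 5 Rubisco and activase rows, 2 rose in J. herrerae (RBCS3B and RBCS2B) and 0 in J. procumbens, against 32 and 30 of the 34 antenna and photosystem rows. Of all loci 32.9% and 21.4% were called higher, and 5 rows are too few to tell from those shares. RBCS1A stood at 349, 2517 and 491 after secretion in J. herrerae against 71.7, 136 and 188 during it, with no overlap, and its change of 2.62 (SE 1.35) did not pass (limma adjusted p = 0.11). In J. procumbens RBCS1A stood at 84.2 and 8.13 during and 102 and 163 after secretion (2.22, SE 1.66, limma adjusted p = 0.314). RBCS3B (AT5G38410) rose from 40.2, 93.7 and 93.9 to 260, 708 and 387 in J. herrerae (2.53, SE 0.57, limma adjusted p = 0.00134).

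RCA (AT2G39730) was the only row with a negative estimate in J. herrerae. It stood at 38.7, 119 and 82.8 during and 43.9, 92.8 and 39.3 after secretion (-0.41, SE 0.60, limma adjusted p = 0.589). In J. procumbens RCA stood at 18 and 17.1 during and 43.9 and 50.3 after secretion, with no overlap and no call (1.37, SE 0.74, limma adjusted p = 0.157). Among Calvin cycle enzymes all 5 rose in J. herrerae, and 2 (PRK and FBPase) in J. procumbens, where 32.9% and 21.4% of all loci were called higher. PRK (AT1G32060), phosphoribulokinase, which makes the substrate of Rubisco, went from 1.43, 6.04 and 6.71 to 23.4, 46.9 and 23.4 in J. herrerae. PRK went from 2.45 and 3.25 to 17.7 and 18 in J. procumbens, where the call was lost without any 1 of the 4 libraries (limma adjusted p = 0.0832 to 0.135). GAPB stood at 48.2 and 33.3 during and 36 and 66.5 after secretion in J. procumbens and did not pass (0.28, limma adjusted p = 0.833).

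The rise after secretion in J. herrerae held in size when single libraries were left out (40 to 44 genes called), while in J. procumbens 23 genes were called without secretory A. With all 23 libraries 11 of the 48 rose in J. herrerae and 0 in J. procumbens, with 30 and 0 at an unadjusted p below 0.05. Median changes were then 3.94 and 1.70. Post-secretory B was the highest library of its group for 45 of 45 genes in J. herrerae, and post-secretory C for 40 of 44 in J. procumbens. Without the library factors, where the median of all loci shifted to 0.86 and 0.42, 43 and 38 genes were called higher.

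Other tissue markers moved between the same stages, and their part in the rise was not tested. The summed level of 3 vascular markers of the 4 listed went from 12.9 to 17.9 during secretion to 26.1 to 29.2 after it in J. herrerae, and from 4.9 to 8.95 to 11.2 to 15.2 in J. procumbens, with 96.6 to 165 and 26.1 to 49.7 in leaf. By group means SUC2 rose (6.43 to 15.1 in J. herrerae and 2.44 to 11.4 in J. procumbens), as did APL in J. herrerae (3.93 to 7.49). IRX3 did not rise (4.94 to 4.82 and 4.48 to 1.85). Sums of the 5 carpel and ovule markers went from 451 to 739 down to 184 to 222 in J. herrerae and from 594 to 659 down to 198 to 227 in J. procumbens. By group means the fall lay in SHP1 (503 to 97.3 and 615 to 193) and, in J. herrerae, SHP2 (28.4 to 1.18). Means of STK (90 to 90.9 and 8.96 to 13.8), ANT (0 to 12.2 and 0 to 2.47) and INO (1.25 to 2.94 and 2.44 to 2.76) did not fall. Sums of the 2 petal markers went from 46.8 to 148 down to 25.2 to 37.7, and from 49 to 57.7 down to 34.1 to 46. For the 2 guard cell markers present of 4 the sums were 1.43 to 6.71 and 5.85 to 7.53 in J. herrerae, where FAMA was at 0 at both stages, and 1.63 to 2.45 and 1.83 to 2.49 in J. procumbens. The pollen and trichome lists had 1 marker each, at or below 15.5 in every nectary library. ANT was at 0 in secretory nectary of both species, SHP2 in every J. procumbens group, and APL in J. procumbens secretory and post-secretory nectary.

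**Figure D4:**
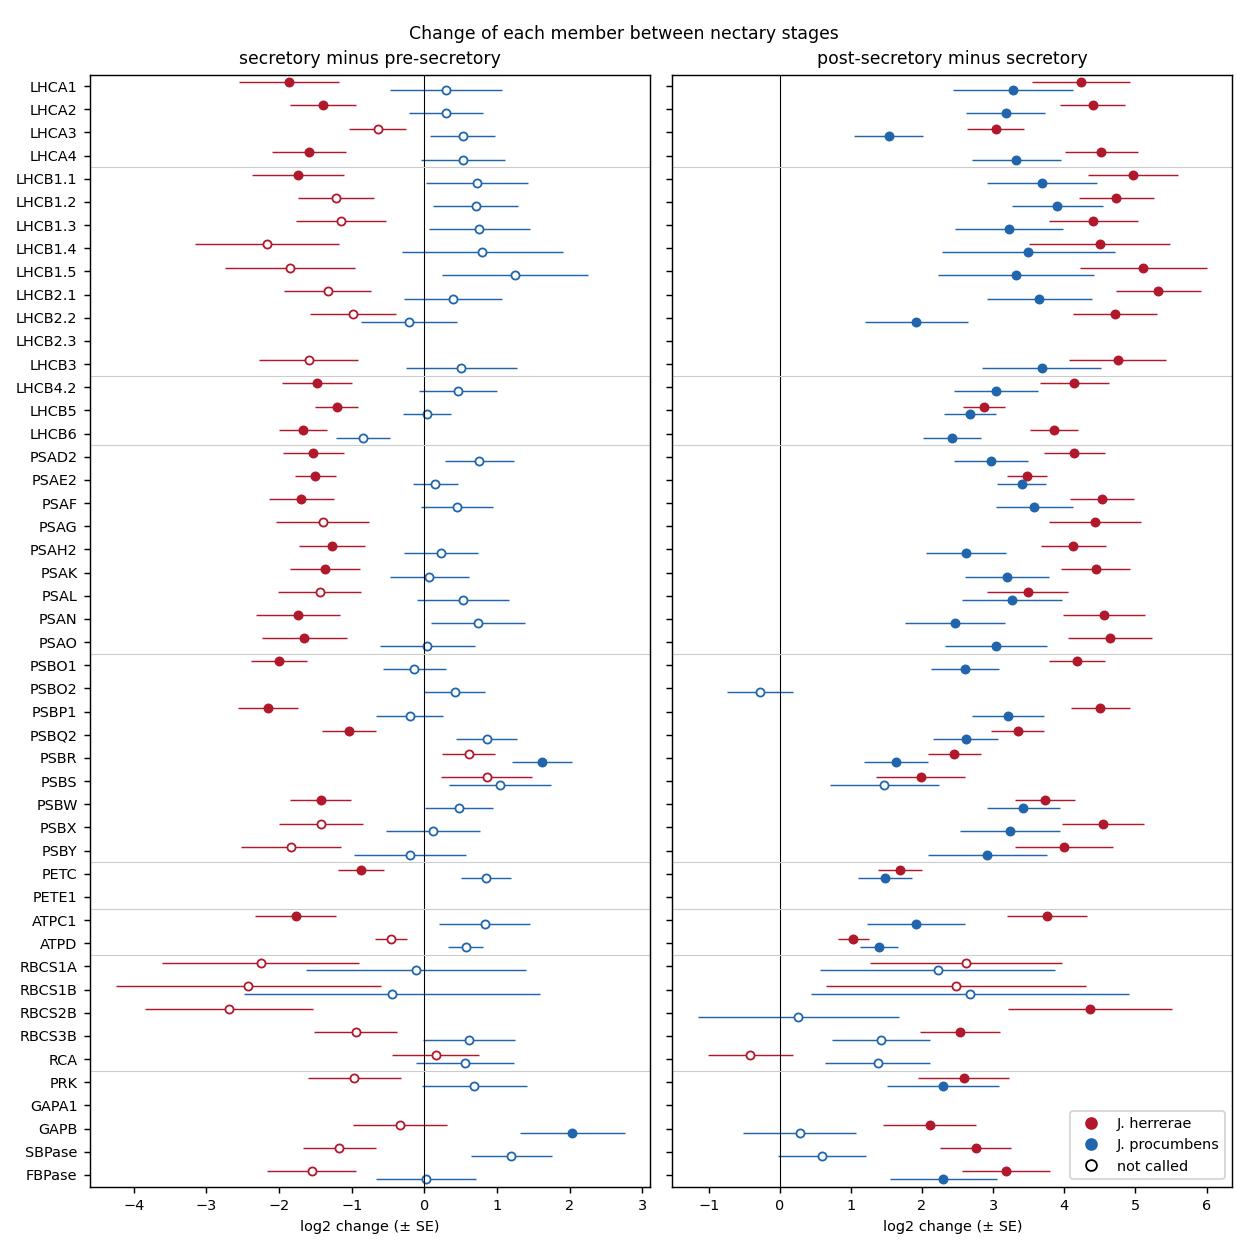
Log2 change of each gene with its standard error between nectary stages, in J. herrerae (red) and J. procumbens (blue); filled points were called at an adjusted p below 0.05, and genes with a group at 0 in all libraries are not drawn. At the start of secretion J. herrerae points lie mostly left of 0, and after secretion points of both species lie to the right, up to 5.32 for LHCB2.1.

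During secretion nearly all the genes lay far below leaf. In J. herrerae 45 of 48 were lower in secretory nectary than in leaf, where 33.1% of all loci were called lower, with a median of -7.06. In J. procumbens 46 were lower, where 32.6% were called lower, with a median of -6.41. The largest called difference in both species was that of RBCS1B (AT5G38430), a Rubisco small subunit, at -9.83 and -10.89. The smallest called difference was that of ATPD in J. herrerae (-4.25) and of PSBO2 in J. procumbens (-1.98), a row at 3.64 and 10 in leaf. With all 23 libraries 44 genes were lower in J. herrerae and 10 in J. procumbens.

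After secretion the genes lay below leaf by amounts that varied with their role. In J. herrerae 45 of the 48 were still lower than in leaf, where 19.3% of all loci were called lower, and in J. procumbens 45, where 21.5% were. Median differences were -3.13 and -3.50. Antenna and photosystem rows had group means of 7% to 17.8% of the leaf mean in J. herrerae (median 12.7%, 32 rows) and 2.2% to 24.7% in J. procumbens (median 9.08%, 33 rows). Rubisco and activase rows had 1.02% to 2.73% (median 2.6%, 5 rows) and 0.322% to 3.77% (median 0.673%, 5 rows), and Calvin cycle rows had medians of 4.83% and 3.69%.

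Summed over family members the same order was seen. The 5 LHCB1 genes together stood at 12.3% to 20.6% of the leaf mean in the J. herrerae post-secretory libraries and at 10.4% to 17.1% in those of J. procumbens. The 4 Rubisco small subunit genes stood at 0.555% to 2.95% and 0.352% to 0.598%. The ratio of summed Rubisco small subunit to summed antenna TPM was 0.842 and 1.33 in J. herrerae leaf and 1.32 and 1.22 in J. procumbens leaf. After secretion the ratio was 0.0531, 0.166 and 0.0742 in J. herrerae and 0.045 and 0.0479 in J. procumbens B and C. Before secretion in J. herrerae it was 0.824, 0.123 and 1.88, so A lay just below the leaf ratios, C above them and B far below. During secretion it was 0.354, 0.352 and 0.241 in J. herrerae and 0.373 and 0.0592 in J. procumbens. In J. procumbens before secretion it was 0.246, 0.151 and 0.172. Every nectary library kept other than A and C of J. herrerae before secretion thus lay well below its leaf libraries. These ratios are described and were not tested.

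In the tests against leaf, RBCS1B had the largest called difference after secretion in both species (-7.35 and -8.22). RBCS1B stood at 34.1, 285 and 30.1 after secretion against 8663 and 14218 in leaf of J. herrerae, and at 31.1 and 42.9 against 14286 and 8719 in J. procumbens. The RBCS1B calls were lost without leaf B in J. herrerae (limma adjusted p = 0.0835), and without post-secretory B or leaf B in J. procumbens (limma adjusted p = 0.0514 and 0.0508). The smallest called differences were those of PSBQ2 (AT4G05180), an extrinsic photosystem II protein, in J. herrerae (-2.50) and of PSBR in J. procumbens (-2.01). PSBR stood at 251 and 232 after secretion in J. procumbens against 998 and 959 in leaf. With all 23 libraries 0 genes were called in either species, with 11 in J. herrerae and 8 in J. procumbens at an unadjusted p below 0.05 (limma). Median differences were then -3.12 and -2.94.

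**Figure D5:**
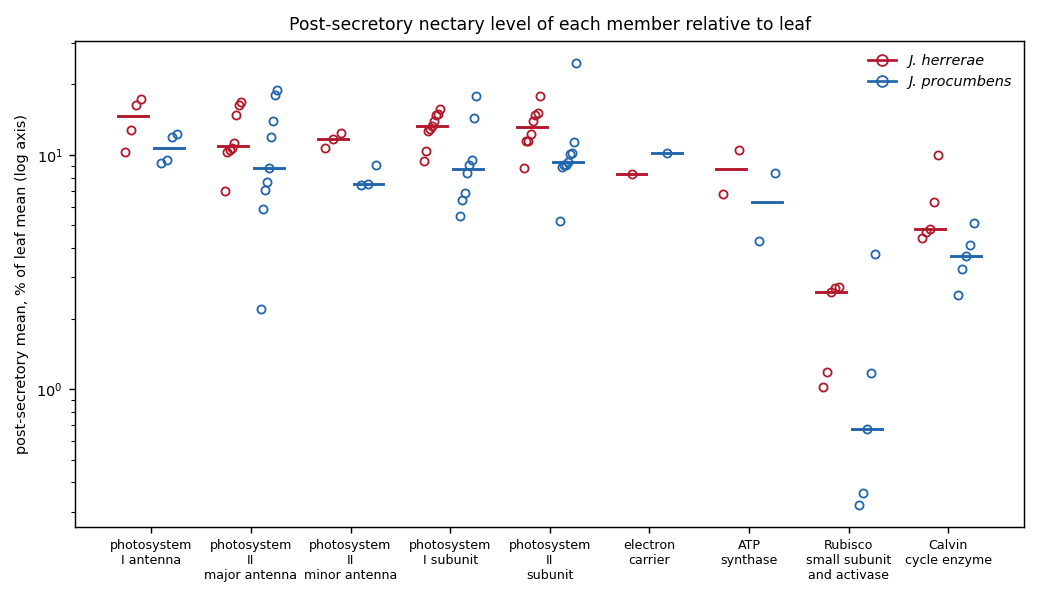
Post-secretory group mean of each gene as a percentage of its leaf group mean (log axis), by role and species; points are genes with a leaf mean of at least 5 rescaled TPM and lines are medians. Rubisco and activase rows sit at 1.02% to 2.73% in J. herrerae, below its antenna and photosystem rows at 7% to 17.8%.

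Between the species, most of the genes differed before secretion. In pre-secretory nectary 36 of the 48 genes were higher in J. herrerae and 0 lower, with a median of 1.88. Of all loci 24.7% were called higher there, and 3111 of 13075 lower. LHCB1.3 stood at 453, 103 and 710 in J. herrerae A, B and C and at 49.3, 29.7 and 16.2 in J. procumbens B, C and D (3.43, SE 0.62, limma adjusted p = 0.000315). ATPD stood at 34.3, 40.1 and 58.7 against 9.58, 10.7 and 11.9 (1.92, SE 0.22, limma adjusted p = 3.02e-06). Neither overlapped. The smallest called difference was PSBP1 (1.26, SE 0.41, limma adjusted p = 0.0188), whose call was lost without J. herrerae pre-secretory C (0.114) or J. procumbens pre-secretory C (0.0565).

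RBCS2B, listed at 0 in J. procumbens before secretion, and PSAG, at 0 there in B and D and 2.29 in C, were also among the 36. RBCS1A differed by 4.29 (SE 1.35, limma adjusted p = 0.016), and the call was lost without J. herrerae pre-secretory A or C or J. procumbens pre-secretory D (limma adjusted p = 0.0548 to 0.0996). The count of 36 was 20 without J. herrerae pre-secretory C (with 1 gene called lower), 14 with only the compared groups and 0 with all 23 libraries, with 0 at an unadjusted p below 0.05 in limma. On deposited TPM without library factors 28 genes were higher and 2 lower, with the median of all loci at -0.70.

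During secretion the species differed in few genes: 5 were higher in J. herrerae and 2 lower, where 24.2% and 24.3% of all loci were called, with a median of 0.05. Leaving aside PSAG, called higher against 0 in both J. procumbens libraries, the largest called differences were LHCB2.2 (2.71) and LHCB1.5 (-3.82), and the smallest were ATPD (0.90) and LHCA3 (-1.78). The ATPD call was lost without J. procumbens secretory A (limma adjusted p = 0.0578) and that of LHCB1.5 without secretory B (0.0569). This balance depended on the scaling: on deposited TPM without library factors 2 genes were higher and 16 lower, with the median of all loci at -0.84. With all 23 libraries 0 were called, with 1 at an unadjusted p below 0.05 (limma), and without J. herrerae pre-secretory B 8 were higher and 3 lower.

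After secretion 13 of the 48 genes were higher in J. herrerae, near the share of all loci called higher (23.7%). Of the 48, 0 were lower, where 2997 of 13075 loci were, and the median was 0.99. The 13 genes ranged from LHCB5 (0.86, called in 9 of the 20 fits that left out 1 library) to RBCS2B (6.34), leaving aside PSAG. The count of genes called higher was 20 without J. herrerae pre-secretory B (with 1 called lower), 7 without J. herrerae post-secretory B, 6 without J. procumbens post-secretory B and 2 with all 23 libraries. LHCB6 (AT1G15820), a minor antenna protein linked to photoprotection, stood at 260, 460 and 275 against 70.1 and 92.6 in J. procumbens B and C (1.98, SE 0.37, limma adjusted p = 0.000483). LHCB6 was also higher in J. herrerae leaf (2519 and 2823 against 990 and 802).

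In leaf 6 genes were higher in J. herrerae and 2 lower, where 20.7% and 18.3% of all loci were called. With all 23 libraries 2 were higher and 2 lower. Leaving aside PSAG, the values called higher ran from PSBO1 (1.32, SE 0.48, limma adjusted p = 0.0393), whose call was lost without any 1 of the 4 leaf libraries, to RBCS2B (6.76, SE 1.42, limma adjusted p = 0.0014). The 2 lower genes were LHCB2.3 and PSBO2, which were listed at 0 in every J. herrerae library and stood at 25.1 and 7.28, and 10 and 3.64, in J. procumbens leaf.

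For some of these genes, rows of the same Arabidopsis family held different shares of the family TPM in the 2 species. The matching of transcripts to Arabidopsis loci is not described, and counting could split reads between similar copies. Single rows of the LHCB1, LHCB2 and Rubisco small subunit families are therefore uncertain. RBCS2B (AT5G38420) stood at 4416 and 7498 in J. herrerae leaf and 60.3 and 44.9 in J. procumbens leaf, while the sum of the 4 small subunit rows was 93590 and 163463 against 87877 and 67684. LHCB2.2 (AT2G05070) stood at 4213 and 6296 against 423 and 529 in leaf, and made up 50.3% and 56.4% of the LHCB2 family TPM in J. herrerae leaf but 21.7% and 31% in J. procumbens leaf. Both family sums were themselves higher in J. herrerae. The LHCB2 sum stood at 8367 and 11156 against 1947 and 1708 in leaf and at group means of 1208 against 171 after secretion. The small subunit sum, given above for leaf, had group means of 1842 against 369 after secretion. LHCB1.5 (AT2G34420) made up 4.21% to 5.85% of LHCB1 TPM in J. herrerae post-secretory nectary and 38.9% to 41.1% in that of J. procumbens.

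PSAG (AT1G55670), a photosystem I subunit, was the extreme case. PSAG stood at 1808 and 2345 in J. herrerae leaf and was listed at 0 in all J. procumbens libraries kept except pre-secretory C (2.29), so no fold between species is given. In the J. procumbens pre-secretory library A that was left out, PSAG stood at 1374 deposited TPM, RBCS2B at 4296 and LHCB2.2 at 4624. In deposited TPM the J. herrerae leaf libraries stood at 1460 and 1692, 3566 and 5411, and 3402 and 4544, and the other J. procumbens leaf and nectary libraries at 0 to 3, 0 to 60 and 2 to 436.

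The difference between species in the change after secretion was called for 2 genes, LHCB2.2 (2.79, SE 0.93, limma adjusted p = 0.0454) and PSAG, both larger in J. herrerae, where 9.98% of all loci were called in that direction. PSAG was listed at 0 in all J. procumbens libraries of both stages, so its call reflects the J. herrerae rise alone (from 5.74, 10.6 and 20.1 to 192, 363 and 233). The LHCB2.2 call was lost in 13 of the 20 fits that left out 1 library. The count was 6 without J. herrerae pre-secretory B or pre-secretory C, 4 without J. herrerae secretory C, and 0 with all 23 libraries, with 0 at an unadjusted p below 0.05 (limma).

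Chlorophyll synthesis supplies the pigment that antenna proteins bind. Of 12 genes present, 6 fell and 0 rose at the start of secretion in J. herrerae, where 18.1% of all loci were called lower, and 10 rose after it, where 32.9% were called higher. In J. procumbens 1 rose and 1 fell at the start (17.3% and 18.3% of all loci), and 7 rose after secretion (21.4%). These shares of all loci also stand beside the smaller lists that follow, with 15.4% called higher at the start and 25.5% lower after secretion in J. herrerae, and 16.9% lower after secretion in J. procumbens. CHLM, a methyltransferase of the pathway, was listed at 0 in J. herrerae secretory nectary, and PORB, which reduces protochlorophyllide in light, rose by 4.26 (SE 0.49, limma adjusted p = 4.77e-06) after secretion in J. herrerae. GGR, which makes the phytyl tail, rose by 3.26 there, and PORB by 2.95 in J. procumbens (SE 0.60, limma adjusted p = 0.00142). At the start, CHLG, chlorophyll synthase, fell by 2.02 in J. herrerae.

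Chlorophyll breakdown enzymes remove the same pigment. At the start of secretion 1 of 6 genes rose in J. herrerae, near the 15.4% of all loci, and 4 of 6 in J. procumbens (17.3% of all loci), and 0 fell. NYC1, chlorophyll b reductase, rose by 1.97 in J. herrerae and by 1.94 in J. procumbens. PPH, which removes phytol, rose by 1.97 in J. procumbens. After secretion 2 rose and 2 fell in J. herrerae, with NYC1 at -2.01 and RCCR at 0.76, and 0 passed in J. procumbens, where NYC1 had an estimate of -0.69 (limma adjusted p = 0.173).

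Photorespiration and the other Calvin cycle enzymes were mixed. Of 10 photorespiration genes 4 fell and 0 rose at the start in J. herrerae, and 3 rose and 1 fell in J. procumbens, where GOX2, a glycolate oxidase, rose by 3.26. GLDT fell by 0.74 there, a call lost without any 1 of the 5 libraries compared (limma adjusted p = 0.0701 to 0.189). After secretion 5 rose and 1 fell in J. herrerae (32.9% and 25.5% of all loci), and 2 rose and 1 fell in J. procumbens, near the shares of all loci (21.4% and 16.9%). CAT2, a catalase of leaf peroxisomes, fell by 2.27 in J. herrerae, where GOX1 rose by 2.43. Of the 10 other Calvin cycle enzymes 3 fell at the start in J. herrerae, with GAPA2 at -2.36 (not called without pre-secretory A or C or secretory A, limma adjusted p = 0.059 to 0.0909), and 1 rose and 1 fell in J. procumbens. After secretion 5 rose and 1 fell in J. herrerae, with GAPA2 at 4.47 and TPI at -1.20. In J. procumbens 3 rose and 2 fell, with CP12-1 at 1.97 and TPI at -2.26.

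Among 4 ferredoxin and cyclic electron flow genes, PGR5, a protein of cyclic flow, rose at the start of secretion by 1.55 in J. herrerae and by 1.75 in J. procumbens, as the only call of the list. These calls were lost without J. herrerae pre-secretory B or secretory B or C (limma adjusted p = 0.0654 to 0.0721) and without J. procumbens pre-secretory B or secretory A (0.051 and 0.129). After secretion PGRL1A rose by 2.42 in J. herrerae and FNR1 by 1.71 in J. procumbens. Of 4 regulators, HY5, a light-signalling factor, rose at the start in both species (1.19 and 1.08) and fell after it (-1.003 and -1.68). The HY5 calls in J. herrerae were lost without secretory B (limma adjusted p = 0.0512 and 0.0667), the later one also without post-secretory C (0.055). The rise in J. procumbens was lost without pre-secretory B or D or secretory B (0.0528 to 0.245). GLK1, a factor that activates antenna and chlorophyll genes in Arabidopsis, rose after secretion from group means of 2.68 to 11.6 in J. herrerae (1.74) and of 1.22 to 9.53 in J. procumbens (2.25). STN7, the kinase of state transitions, fell at the start in J. herrerae (-0.88) and rose in J. procumbens (1.04). That difference was called at -1.92 (SE 0.27, limma adjusted p = 0.000712), in all 20 fits that left out 1 library. STN7 rose after secretion in both species (1.52 and 1.24).

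ELIP2, a light-stress protein of the antenna superfamily, was highest during secretion in both species. ELIP2 rose at the start of secretion from a mean of 2.58 to 125 in J. herrerae (5.14, SE 0.80, limma adjusted p = 0.000269) and of 26.9 to 196 in J. procumbens (3.90, SE 0.90, limma adjusted p = 0.00472). After secretion ELIP2 fell by 2.38 and 4.33, the first of these not called without secretory B or post-secretory C (limma adjusted p = 0.0581 and 0.0816). ELIP1, its close relative, was listed at 0 in J. herrerae before and after secretion. Of the 6 assembly and repair genes, which include these 2, 2 rose at the start in J. herrerae and 3 in J. procumbens, and 0 fell, where 15.4% and 17.3% of all loci were called higher. After secretion 2 rose and 2 fell in J. herrerae, with OHP1 at 1.67, and 1 rose and 2 fell in J. procumbens, with FTSH2 at 0.93 (not called without any 1 of the 4 libraries compared, limma adjusted p = 0.0636 to 0.0904). The lists were chosen with earlier results of these data known. With all 23 libraries, of their 52 genes 2 rose and 1 fell at the start in J. herrerae (5 and 14 in the main results), 4 rose and 3 fell after secretion there (27 and 7), and none was called in J. procumbens (limma).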

How the data were processed

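RNA-seq libraries of nectary and leaf were quantified with kallisto 0.46.1, per the submitters' processing notes, from stranded mRNA libraries read as 150 bp pairs, per the labels' protocols. The deposited score is TPM, which the authors rounded to whole numbers, for 13170 Arabidopsis loci. The reference and the matching to Arabidopsis loci have no description in the sources used here. Since TPM carries no depth, the precision of a value is unknown. Listed totals were 542947 to 779099 TPM per library, and 23 libraries of 24 planned were analysed.

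TPM was divided by median ratio factors (0.447 to 1.64, over 9613 loci above 0 in 20 libraries). The 13075 loci that reached 1 TPM in 2 or more libraries were tested as log2(value + 1), which understates changes of low genes. limma 3.58.1 on R 4.3.3 fitted 8 group means with a variance trend over all groups, and p-values were Benjamini-Hochberg adjusted over all loci for each of 14 comparisons. Fits were first tested on simulated data. Summaries used pandas 2.3.3 with numpy 2.4.6 in Python 3.11.15, and plots matplotlib 3.10.9.

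The members, the lists and the 3 libraries left out were chosen with earlier results of these data known. Genes were named by a rule: the most abundant 1 or 2 of each role, the largest and smallest called change of each comparison, up to 5 genes against the majority, the 5 closest loci outside the list (at most 2 printed), and the largest called change each way of each other list. Genes named beyond this, mostly other called members and the species splits of RBCS2B, LHCB1.5 and PSAG, were chosen after their values were seen. Family sums, ratios and shares of leaf were described without a test. Alternatives were all 23 libraries, no library factors, adding 0.1 in place of 1, testing every locus, a minimum mean of 5 TPM, a replicate block, only the compared groups, and leaving out each library.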

Additional observations from a re-analysis of the deposited data

Results flagged for a closer look

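The only group of 4 libraries was J. procumbens pre-secretory nectary. There 47 of the 48 genes passed a test for a single distant value that chance passes in about 1 of 20 groups. For PSBO2 and PETE1 the distant library was C (2 and 3 deposited TPM), with A, B and D at 0. For the rest of the 47 it was library A, far above B, C and D. Library A had already been left out, and the genes moved together over the libraries kept (median r 0.98). The 47 are thus not separate observations, and the test adds no independent support. The 48 genes held 32.4% of the listed TPM of library A. In deposited TPM library A stood at 39090 for LHCB1.2, 4624 for LHCB2.2, 1374 for PSAG, 4296 for RBCS2B and 8850 for RBCS3B. The B, C and D libraries stood at 182, 142 and 122, at 7, 3 and 2, at 0, 3 and 0, at 0 in each, and at 94, 48 and 65. Why this library stands apart was not tested.

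The change at the start of secretion differed between species by a test of the difference for SBPase (-2.37), PSAD2 (-2.28), PSAF (-2.14), PSBP1 (-1.95), PSBQ2 (-1.89), PSBO1 (-1.86), PETC (-1.72) and PSAE2 (-1.66), and outside the 48 genes for STN7 (-1.92), all on the log2 scale and more negative in J. herrerae. The change after secretion differed for LHCB2.2 (2.79) and PSAG (4.43), both larger in J. herrerae. PSAG was listed at 0 in J. procumbens at both stages, so its value is the J. herrerae change alone and not a measured difference of 2 changes.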

How the results depend on the processing

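Counts are of the 48 genes called, in either direction. Keeping all 23 libraries changed most: 0 at the start of secretion in either species, 11 (J. herrerae) and 0 (J. procumbens) after it, 0 for post-secretory nectary against leaf in both species, 10 for secretory nectary against leaf in J. procumbens, 0, 0, 2 and 4 between species before, during and after secretion and in leaf, and 0 for both differences between species. The 3 libraries added are all J. procumbens, and the fit estimates the spread of a gene over all groups together. In J. herrerae the medians were then -1.41, 3.94 and -3.12 (start, end, post-secretory against leaf), beside -1.41, 3.93 and -3.13 in the main results. Single estimates that changed sign with all 23 libraries were PSBR at the start of secretion in J. procumbens (-0.17), PRK (-0.16), PSBP1 (-0.36), PSBW (-0.0904) and RBCS3B (-0.39) between species before secretion, and PSAE2 (0.39) in the species difference at the start. Deposited TPM without factors gave 37 calls at the start in J. herrerae, 18 between species during secretion (mostly lower, the reverse of the main direction, with ATPD at -0.11), and 13 and 9 for the differences between species. Only the compared groups gave 2 and 0 at the start in J. herrerae and J. procumbens, 14 and 25 between species before and after secretion, and 1 and 5 for the differences between species. A pseudocount of 0.1 gave 0 for the species difference after secretion, and no filter gave 4 and 1 for those at the start and after secretion. A mean TPM of at least 5 moved no count of members called by over 1.5 times. Deviations of same-letter libraries from their group means had r from -0.36 to 0.14 (24 pairs, 3 over 0.1). In groups this small the deviations within a group depend on each other, so these values cannot decide whether letters pair samples. The replicate block gave 0 at the start in J. procumbens and 4 and 5 for the differences between species, and moved no other count by over 1.5 times.

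Leaving out 1 library at a time gave 6 to 39 and 40 to 44 (start and end of secretion, J. herrerae), 0 to 4 and 23 to 36 (J. procumbens). Against leaf it gave 45 and 39 to 45 (secretory and post-secretory, J. herrerae), and 46 to 47 and 39 to 46 (J. procumbens). Between species it gave 21 to 41, 5 to 11, 6 to 21 and 7 to 11 before, during and after secretion and in leaf. For the differences between species it gave 0 to 32 and 1 to 6. The causes were not tested. Where a group was left with 1 library, it was assumed to vary like the others. Depth is unknown, so low rows such as GAPA1 and PSBO2 carry rounding of unknown weight.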
